A study of Homo sapiens with 5 samples.

Results

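ELL, CIC, HDGFL2, SF3A2, LMNB2, TIMM13, RAB8A, SIVA1, VMAC and FSTL3 are 10 of the 19862 protein-coding genes in the RefSeq gene table of the GRCh38.p14 assembly. They were chosen by the measured peaks themselves: each has a FOXO3A CUT&Tag peak at or near an end of the gene in THP-1 and in U-937 cells. Their positions, fold enrichments and overlaps are therefore descriptions and were not tested. The working name of promoters held for 8 of them. The LMNB2 peak lay beyond the 3′ end of that gene and the FSTL3 peak lay inside the gene, so both are described here as peaks near genes.

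FOXO3A (FOXO3) is a forkhead transcription factor that is held in the cytoplasm when AKT phosphorylates it and that enters the nucleus when growth factor signalling falls. In blood cells it is known for roles in quiescence, oxidative stress defence and apoptosis. CUT&Tag directs a Tn5 transposase to an antibody bound on chromatin, so that the DNA nearby is cut and tagged. Transcript levels were not measured, so nothing below says whether any of these genes responds to FOXO3A.

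The 5 libraries came from 2 established human cell lines with monocytic features, THP-1 (3 libraries) and U-937 (2 libraries). All 5 used the same FOXO3A antibody, the labels name no treatment, and both lines are classed there as acute myeloid leukemia cells. Replicate 1 of each line held peaks, 1282 in THP-1 and 2272 in U-937. The other 3 libraries held 0 peaks, so each value below comes from 1 library and has no replicate check. On chromosomes 1 to 22, X and Y there were 1037 THP-1 and 2272 U-937 peaks, with median fold enrichments of 6.57 and 6.16. No control library was used here, so signal from the antibody and cutting of open chromatin cannot be told apart, and the read depth is unknown. Fold enrichment (a linear ratio whose background no source names) and -log10 q are the authors' values for each peak. Fold enrichments and -log10 q are ranked within 1 list only, because the lists were made or filtered differently. For example, 245 THP-1 peaks and 0 U-937 peaks lay on contigs outside these chromosomes. Coordinates are in hg38, counted from 1.

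The sequences below are the 250 bases before the outermost RefSeq start of 6 genes. In these genes the peaks of both lines overlapped within that stretch. Each sequence is written 5′ to 3′ on the gene's strand, and capitals mark the bases that lie inside the peak of both lines. They come from the RefSeq promoter table (GRCh38.p14) and lie at chr19:2236574-2236823 for SF3A2 (plus strand), chr19:2427587-2427836 for TIMM13 (minus strand), chr14:104752897-104753146 for SIVA1 (plus strand), chr19:18522071-18522320 for ELL (minus strand), chr19:4472047-4472296 for HDGFL2 (plus strand) and chr19:16111639-16111888 for RAB8A (plus strand).
SF3A2: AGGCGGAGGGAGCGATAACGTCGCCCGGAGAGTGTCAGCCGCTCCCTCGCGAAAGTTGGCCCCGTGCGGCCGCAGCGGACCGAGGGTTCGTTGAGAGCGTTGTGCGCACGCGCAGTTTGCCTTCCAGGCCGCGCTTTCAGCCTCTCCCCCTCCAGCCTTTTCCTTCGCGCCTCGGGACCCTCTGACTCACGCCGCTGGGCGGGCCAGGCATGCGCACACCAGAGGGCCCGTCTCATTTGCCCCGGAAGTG
TIMM13: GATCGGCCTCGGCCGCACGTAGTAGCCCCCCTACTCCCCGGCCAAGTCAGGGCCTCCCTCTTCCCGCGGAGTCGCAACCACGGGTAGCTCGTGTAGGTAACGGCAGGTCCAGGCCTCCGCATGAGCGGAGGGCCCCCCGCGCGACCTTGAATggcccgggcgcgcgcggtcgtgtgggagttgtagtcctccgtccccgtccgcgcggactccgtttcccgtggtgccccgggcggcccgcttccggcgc
SIVA1: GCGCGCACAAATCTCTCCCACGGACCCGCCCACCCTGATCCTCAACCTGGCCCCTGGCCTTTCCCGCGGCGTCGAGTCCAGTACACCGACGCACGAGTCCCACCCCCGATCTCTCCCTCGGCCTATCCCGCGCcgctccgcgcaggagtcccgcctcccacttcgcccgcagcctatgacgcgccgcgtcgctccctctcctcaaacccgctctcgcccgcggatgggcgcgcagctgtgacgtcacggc
ELL: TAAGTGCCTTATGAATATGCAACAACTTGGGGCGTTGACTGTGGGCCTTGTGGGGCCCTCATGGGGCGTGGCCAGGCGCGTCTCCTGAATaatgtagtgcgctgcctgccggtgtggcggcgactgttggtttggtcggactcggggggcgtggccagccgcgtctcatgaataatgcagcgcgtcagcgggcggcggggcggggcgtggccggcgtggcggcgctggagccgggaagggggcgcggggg
HDGFL2: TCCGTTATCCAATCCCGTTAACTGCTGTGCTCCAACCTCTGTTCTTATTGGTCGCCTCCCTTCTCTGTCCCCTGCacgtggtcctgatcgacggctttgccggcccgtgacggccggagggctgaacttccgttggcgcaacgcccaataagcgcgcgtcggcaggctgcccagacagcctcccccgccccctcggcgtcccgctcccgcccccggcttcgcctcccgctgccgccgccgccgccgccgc
RAB8A: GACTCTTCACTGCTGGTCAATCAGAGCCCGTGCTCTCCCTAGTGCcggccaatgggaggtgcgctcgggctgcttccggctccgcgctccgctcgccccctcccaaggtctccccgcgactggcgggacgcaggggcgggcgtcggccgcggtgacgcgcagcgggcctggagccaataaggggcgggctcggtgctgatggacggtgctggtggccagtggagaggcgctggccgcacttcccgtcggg

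The capitals run through all 250 bases in SF3A2. They cover 152 bases in TIMM13, 133 in SIVA1, 90 in ELL, 75 in HDGFL2 and 45 in RAB8A, in each case from the upstream edge inward. In these 5 genes the shared signal thus ended before the start site. In every printed gene the overlap of the peaks also ran on upstream of the 250 bases. At ELL, HDGFL2 and RAB8A both summits lay upstream of the printed bases. At VMAC and CIC the overlap of the peaks lay outside the 250 bases before the gene's outermost start.

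The 10 genes rested on 9 distinct peaks in each line, since TIMM13 and LMNB2 shared 1. At all 10 genes the THP-1 and U-937 peaks overlapped by at least 1 bp. Across the whole THP-1 list 25 peaks overlapped a U-937 peak, 2.41% of 1037, and these 9 made up 36.0% of the 25. A summit within 1000 bp of either end of the gene was present in both lines for 9 of the 10 genes, FSTL3 being the exception. Over all protein-coding genes that held for 44 genes in THP-1 (0.222%), 1395 in U-937 (7.02%) and 20 in both (0.101%). As the genes were picked by these peaks, nothing is read from that contrast. Measured from annotated starts only, both summits lay within 1000 bp for 8 genes, against 0.234% of 15842 genes in THP-1, 7.75% in U-937 and 0.133% in both.

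Among the 20 genes inside the 1000 bp limit in both lines the farthest was GSK3B, with a THP-1 summit at 846 bp and a U-937 summit at 426 bp. The nearest gene outside was BAD, with summits at 1122 and 341 bp. The farthest of the 10 genes inside the limit was VMAC, at 499 and 302 bp.

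**Figure D1:**
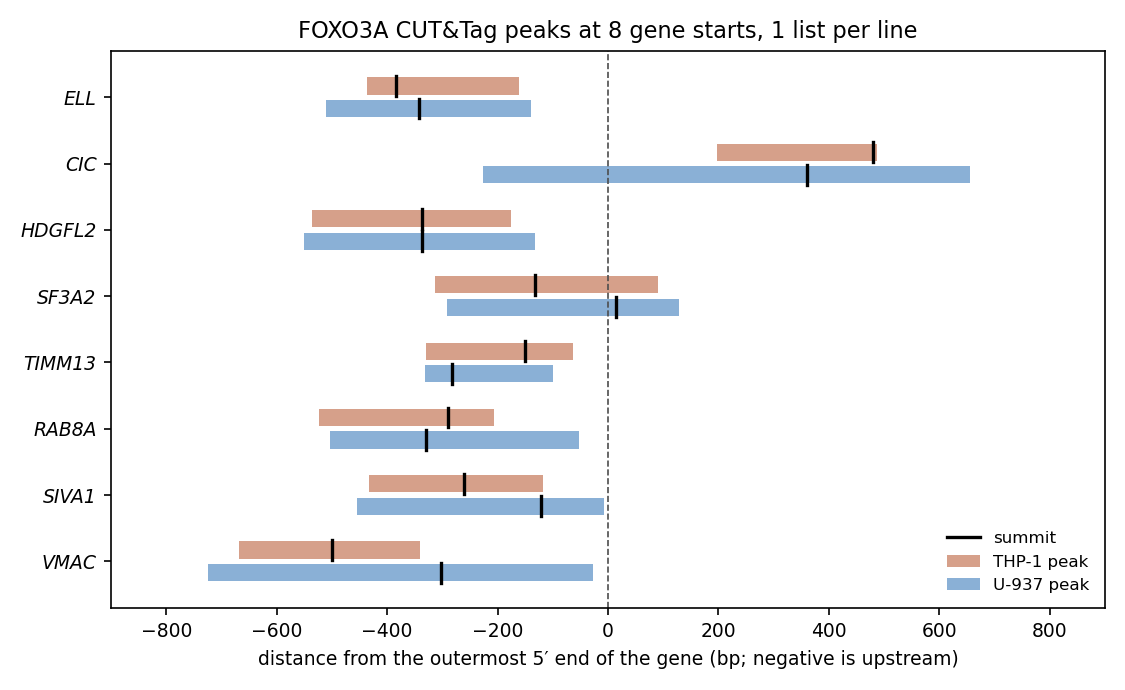
Peaks of THP-1 (upper bar) and U-937 (lower bar) at the 8 genes with a start nearby, by distance in bp from the gene's outermost 5′ end along the direction of transcription, with summits as black ticks. The pairs other than CIC and SF3A2 lie wholly upstream of the start, the SF3A2 peaks span it, the CIC peaks lie around and after it, and the HDGFL2 summits are 1 bp apart.

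ELL, CIC, HDGFL2 and SF3A2 encode proteins that act on chromatin, transcription or RNA. ELL encodes an RNA polymerase II elongation factor that is also a fusion partner of KMT2A in leukemia. Its U-937 peak at chr19:18522209-18522581 had a fold enrichment of 15.3 and a -log10 q of 27.5, rank 4 of 2272 by fold and first among the 1202 U-937 peaks within 1000 bp of an end of a protein-coding or lncRNA gene. The THP-1 peak at chr19:18522231-18522506 had a fold of 4.98 and a -log10 q of 4.09, rank 779 of 1037. The summits lay 384 bp (THP-1) and 343 bp (U-937) upstream of the start, 41 bp apart, at 223 and 204 bp from the left edge of their peaks. The whole THP-1 peak, 276 bp, fell inside the U-937 peak of 373 bp.

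ELL was also the 1 gene of the 10 with a second THP-1 peak inside the gene or within 1000 bp of it. This peak lay at chr19:18441984-18442449, with its summit 439 bp beyond the 3′ end of the gene and 79846 bp from the start. Its fold of 10.8 (-log10 q of 26.5, rank 222 of 1037) was higher than that of any other THP-1 peak of the 10 genes. The nearest U-937 peak was 79760 bp away, so the 3′ signal was in the THP-1 list without a U-937 counterpart, whereas the peak at the start was in both.

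CIC encodes an HMG-box repressor that holds down ETV and other MAPK-responsive genes. The U-937 peak at chr19:42268303-42269186 was 884 bp wide, and 3 of the 2272 U-937 peaks were wider. Its fold was 14.4 and its -log10 q 42.4, rank 8 by fold and rank 3 by q. The THP-1 peak at chr19:42268728-42269018 was 291 bp wide with a fold of 4.65 and a -log10 q of 3.58, rank 850. It lay wholly inside the U-937 peak and covered 32.9% of it. RefSeq places CIC starts at 42268530, inside the U-937 peak, and at 42269252, just beyond its right edge, and neither is inside the THP-1 peak. The THP-1 summit lay 481 bp after the first and 241 bp before the second, and the U-937 summit 360 bp after the first and 362 bp before the second. Both summits were thus between the alternative starts, 121 bp from each other. The THP-1 summit was 283 bp into a peak of 291 bp, close to its right edge.

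HDGFL2 encodes a PWWP-domain protein that binds methylated histone H3 in transcribed chromatin. Its summits, at 4471960 in THP-1 and 4471961 in U-937, were the closest of the 9 pairs at 1 bp. They lay 337 and 336 bp upstream of the outer start and 1994 and 1993 bp upstream of the inner one. The U-937 peak at chr19:4471746-4472164 had a fold of 12.4 and a -log10 q of 18.4, rank 29. In THP-1 the peak at chr19:4471760-4472121 had a fold of 5.18 and a -log10 q of 4.70, rank 747. The peaks shared 362 bp, all of the THP-1 peak and 86.4% of the U-937 peak.

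SF3A2 encodes a subunit of the U2 snRNP, which recognises the branch point during splicing. It was the 1 gene whose U-937 peak was weak within its list, at chr19:2236532-2236953 with a fold of 4.80, a -log10 q of 2.51 and rank 1767 of 2272. The THP-1 peak at chr19:2236511-2236915 had a fold of 5.19 and a -log10 q of 5.05, rank 743 of 1037. The peaks shared 384 bp, 94.8% of the THP-1 and 91.0% of the U-937 peak, the longest overlap of the 9. The THP-1 summit lay 133 bp upstream of the SF3A2 start and the U-937 summit 14 bp after it. The same peaks lay upstream of PLEKHJ1, which is read the other way, at 362 and 509 bp from its start. The site is a stretch between divergent genes, and the data do not assign the peak to either.

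Mitochondrial import and the nuclear lamina were represented at 1 site. TIMM13 encodes a small chaperone of the mitochondrial intermembrane space, and LMNB2 encodes lamin B2 of the nuclear lamina. Both genes are read on the minus strand, TIMM13 at 2425625 to 2427586 and LMNB2 at 2428166 to 2456959 on chromosome 19, with the peak in the gap between them. The THP-1 peak at chr19:2427649-2427916 had a fold of 5.55 and a -log10 q of 6.996, rank 684. The U-937 peak at chr19:2427685-2427918 had a fold of 8.78 and a -log10 q of 9.08, rank 300. Summits lay 151 bp (THP-1) and 283 bp (U-937) upstream of the TIMM13 start.

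For LMNB2 the same summits lay 429 and 297 bp beyond the 3′ end, at 29.2 and 29.1 kb from its start. No peak of either list was nearer to the LMNB2 start. LMNB2 therefore enters the set through its 3′ end, at the promoter of its neighbour.

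RAB8A and VMAC belong to membrane traffic and the cytoskeleton. RAB8A encodes a small GTPase of exocytic and ciliary transport. Its THP-1 peak at chr19:16111365-16111683 had a fold of 5.05 and a -log10 q of 3.92, rank 768, and its U-937 peak at chr19:16111386-16111836 a fold of 8.98 and a -log10 q of 9.63, rank 276. The summits were 289 and 330 bp upstream of the start, 41 bp apart. RAB8A also held a second U-937 peak inside the gene, at chr19:16118765-16118957 and 6989 bp after the start, with a fold of 4.26 and rank 1956.

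VMAC encodes a coiled-coil protein associated with vimentin-type filaments. The U-937 peak at chr19:5904147-5904845 was 699 bp wide, with a fold of 13.1 and a -log10 q of 25.8, rank 18 by fold and rank 8 by q. In THP-1 the peak at chr19:5904204-5904532 had a fold of 4.71, rank 837, and its -log10 q of 3.41 was the lowest of the 9 THP-1 peaks. Here the summits were farthest apart, 197 bp, and the U-937 summit fell outside the THP-1 peak. They lay 499 bp (THP-1) and 302 bp (U-937) upstream of the VMAC start. They also lay 583 and 780 bp upstream of the start of NDUFA11, a respiratory complex I gene read in the opposite direction, so this site too sits between divergent genes.

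SIVA1 encodes an apoptosis-inducing protein that binds the cytoplasmic tail of CD27. It was the 1 gene outside chromosome 19, on chromosome 14. The THP-1 peak at chr14:104752715-104753029 had a fold of 4.47, the lowest of the 9 THP-1 peaks, a -log10 q of 4.12 and rank 883. The U-937 peak at chr14:104752692-104753139 had a fold of 9.55 and a -log10 q of 11.1, rank 195. Summits were 260 and 122 bp upstream of the start, and the 315 bp THP-1 peak fell wholly inside the U-937 peak. Both summits also lay within the span of LOC107987209, an uncharacterised lncRNA gene.

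FSTL3 encodes a secreted follistatin-like protein that binds activins, and was the gene least like a promoter site. Both peaks lay inside it, at chr19:680716-680982 in THP-1 and chr19:680733-680997 in U-937, 4388 and 4482 bp after the start and 2605 and 2511 bp before the 3′ end. No other gene's end lay within 1000 bp of the summits. The THP-1 fold of 7.16 (-log10 q of 9.76, rank 454) was the highest of the 9 THP-1 peaks at these sites. In U-937 the fold was 11.5 and the -log10 q 15.1, rank 50. The peaks were of nearly equal width, 267 and 265 bp, and shared 250 bp, with summits 94 bp apart.

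Over the 9 sites the U-937 values were high within their list and the THP-1 values low within theirs. In U-937 the folds ran from 4.80 to 15.3 with a median of 11.5. Of the 9 sites, 8 were above the list median, 6 were in the top 10% and the median site exceeded 97.8% of the list. In THP-1 the folds ran from 4.47 to 7.16 with a median of 5.05. FSTL3 alone was above the list median, 0 sites were in the top 10% and the median site exceeded 25.8% of the list. A -log10 q of at least 5 was reached by 3 sites in THP-1 (FSTL3, TIMM13 with LMNB2, and SF3A2), against 81.2% of the list, and by 8 in U-937, against 47.3%. Ranks from lists of different length and making do not show that any site was bound more in 1 line.

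The order of the sites also differed. By U-937 fold it ran ELL, CIC, VMAC, HDGFL2, FSTL3, SIVA1, RAB8A, TIMM13 with LMNB2, SF3A2, and by THP-1 fold it ran FSTL3, TIMM13 with LMNB2, SF3A2, HDGFL2, RAB8A, ELL, VMAC, CIC, SIVA1. Spearman's rho across the 9 sites was -0.48, given as a description only, since each line has 1 library and 8 sites share a chromosome. Neighbours in these orders cannot be told apart without replicates.

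**Figure D2:**
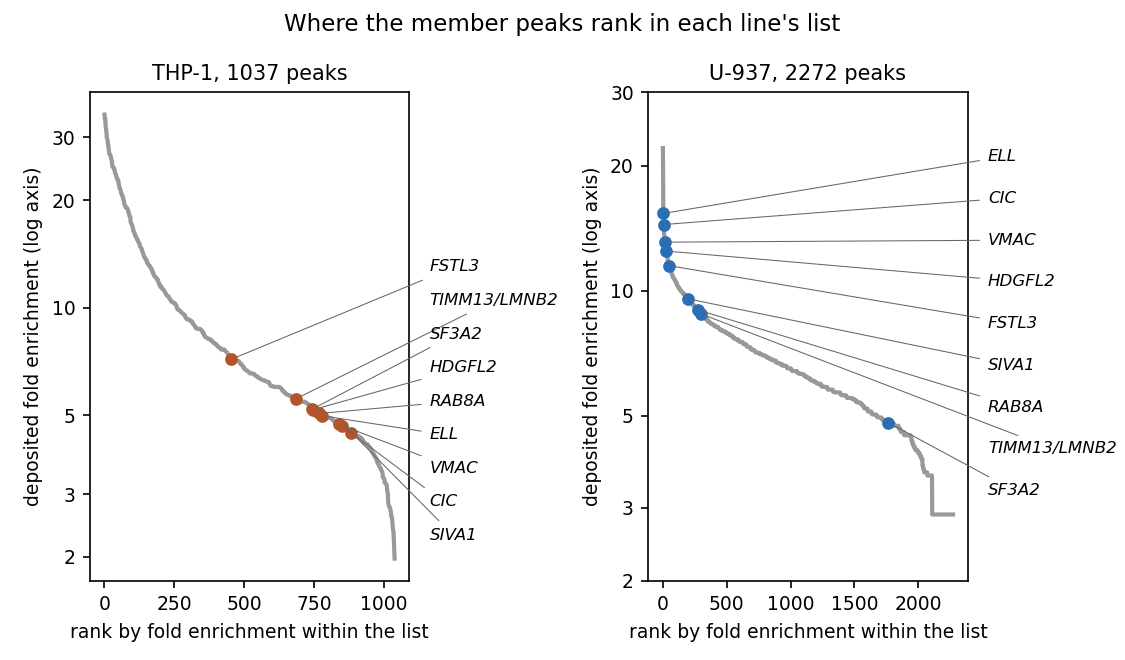
Deposited fold enrichment (log axis) against rank within the list for all chromosomal peaks (grey line) of THP-1 (left) and U-937 (right), with the 9 sites of the 10 genes as points. The THP-1 points sit at ranks 454 to 883 of 1037, whereas the U-937 points sit at ranks 4 to 300 of 2272 except SF3A2 at 1767.

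Peak shape differed in the same direction at most sites. The lists were made or filtered differently, so widths set side by side do not show a difference between the lines. U-937 peaks were wider than THP-1 peaks at 7 of the 9 sites, with a median of 422 bp against 315 bp, although the median of the whole list was 238 bp for U-937 and 475 bp for THP-1. The 2 exceptions were TIMM13 with LMNB2 (234 against 268 bp) and FSTL3. At 5 sites (ELL, CIC, HDGFL2, SIVA1 and VMAC) the THP-1 peak lay entirely inside the U-937 peak. Summits were a median of 121 bp apart (range 1 to 197), and the other 16 overlapping pairs of peaks in the lists had a median of 95.5 bp (range 0 to 499). The U-937 summit was further along the gene at 6 sites and the THP-1 summit at 3, so there was no single direction of offset.

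Both summits were upstream of the start at ELL, HDGFL2, TIMM13, RAB8A, SIVA1 and VMAC. At SF3A2 the THP-1 summit was upstream and the U-937 summit 14 bp after the start. At CIC both summits were after the outer start and before the next one, with the U-937 summit the more upstream. Over the whole lists 42 THP-1 peaks (4.05%) and 1094 U-937 peaks (48.2%) had a summit within 1000 bp of a RefSeq start, and 64.3% and 71.7% of these were upstream. Negative values being upstream, these 42 THP-1 peaks had a median offset of -188 bp, and these 1094 U-937 peaks had one of -123 bp. Peaks farther than 1000 bp from a start do not enter these medians.

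Chromosome 19, which is dense in genes and in CpG-rich promoters, carried 9 of the 10 genes and 8 of the 9 sites. Chromosome 19 holds 7.10% of protein-coding genes. It held 13.3% of the 1395 genes with a boundary peak in U-937, 27.3% of the 44 in THP-1 and 11 of the 20 with one in both. These counts include the 10 genes, FSTL3 aside, which were picked by the same peaks, so the chromosome 19 share was not tested. Of the 11 genes in both lines that are not among the 10, 3 were on chromosome 19. These were ATP8B3, and NDUFA11 and PLEKHJ1, which share a peak with VMAC and SF3A2. The sites were separate within chromosome 19. The next peak of the same list was at least 80230 bp away for THP-1 and 7319 bp for U-937. The latter was the second RAB8A peak. Of the 9 sites, 3 lay within 1000 bp of an end of more than 1 protein-coding gene, the pairs being TIMM13 and LMNB2, SF3A2 and PLEKHJ1, and VMAC and NDUFA11.

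The promoter window at the outermost start of each gene held more CpG dinucleotides, the sites of DNA methylation that stay unmethylated in most active promoters, than the median window. All 10 genes had an entry in the RefSeq promoter table, whose windows run from 250 bases before to 50 after a start, and 13 windows were theirs. At the outermost start the CpG count ran from 22 in VMAC to 44 in FSTL3, with 24 in CIC, 30 in RAB8A, 31 in ELL, 36 in SF3A2, 38 in LMNB2, 39 in HDGFL2, 41 in SIVA1 and 42 in TIMM13. The median of all 35115 windows was 14, and that of the 1851 windows with a U-937 summit within 1000 bp of the start was 26. VMAC and CIC were thus below the U-937 median and the other 8 above it. Among the inner starts, the HDGFL2 window held 9 CpGs, below the median of all windows, and those of CIC held 22 and 52. FSTL3 and LMNB2, with no peak at the start in either line, were among the CpG-rich windows.

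**Figure D3:**
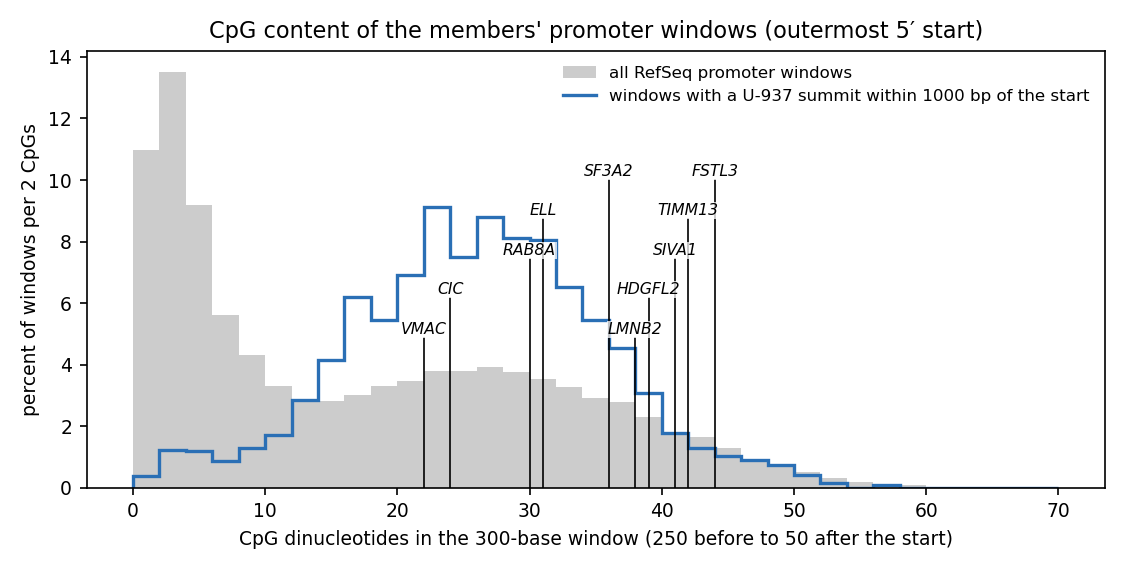
Percent of RefSeq promoter windows by CpG count, in bins of 2, for all windows (grey) and for those with a U-937 summit within 1000 bp of the start (blue line), with the window at the outermost start of each of the 10 genes as a labelled vertical line whose height has no meaning. The genes run from 22 CpGs (VMAC) to 44 (FSTL3), all above the median of 14 over all windows.

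Short motifs were searched on both strands of the same windows, where a match is only a string of letters. The windows of LMNB2 and FSTL3 held no base of either line's peak, so matches there are away from the peaks. The SP/KLF box GGGCGG was in a window of all 10 genes, against 45.0% of all windows and 73.0% of those with a U-937 summit nearby. It lay inside both peaks only in SIVA1 and SF3A2. The ETS core CCGGAAG was in 5 (SF3A2, LMNB2, TIMM13, RAB8A and FSTL3), against 10.3% and 18.2%. Only in SF3A2 did it lie inside both peaks. There it begins 9 bases before the start, and it can be read near the end of the printed sequence. The CCAAT box was in 4 (CIC, HDGFL2, RAB8A and VMAC), against 34.6% and 46.0%, and lay inside both peaks only in HDGFL2. The E-box CACGTG was in CIC and HDGFL2 (7.26% of all windows), and the YY1 core AAGATGGCG in ELL and LMNB2 (1.75%). None of these E-box or YY1 matches lay inside both peaks.

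The CRE, NRF1 and TATA motifs were in 1 gene each. The CRE motif TGACGTCA was in SIVA1, 12 bases before the start and outside the overlap, against 1.85% of all windows and 2.92% of those with a U-937 summit nearby. The NRF1 core GCGCATGC was in SF3A2 on the opposite strand inside both peaks, against 3.05% and 6.86%. The TATA box TATAAA was in FSTL3, against 11.5% and 4.38%. The forkhead core GTAAACA was in none of the 13 windows, against 3.42% of all windows and 1.62% of those with a U-937 summit nearby. These windows reach 250 bases upstream, and most summits lay farther out, so the sequence under many summits was not searched. Genes with several windows have more chances of a match.

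The remaining 11 protein-coding genes with a boundary peak in both lines were NDUFA11 and PLEKHJ1, which share peaks with VMAC and SF3A2, and GSK3B, GPR137, PACS2, ATP8B3, STK35, H2AC11, H2AC12, H2BC11 and H2BC12. ATP8B3 on chromosome 19 (folds 5.10 in THP-1 and 8.38 in U-937, ranks 758 and 367), PACS2 on chromosome 14 (4.35 and 9.52, ranks 911 and 196) and STK35 on chromosome 20 (4.73 and 8.14, ranks 834 and 434) were placed in their lists much as RAB8A and SIVA1 were. At STK35 the summits coincided. The histone pairs were placed the other way, H2AC12 with H2BC12 at folds of 19.4 in THP-1 (rank 73) and 7.51 in U-937 (rank 620), and H2AC11 with H2BC11 at 17.0 (rank 100) and 7.51. At GSK3B, GPR137, H2AC11 and H2BC11 the peaks of the lines did not overlap, unlike at the 10 genes. The 10 genes were picked with their overlaps known, so this contrast was not tested.

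Genes related to the 10 by complex, family or known partner were looked up for boundary peaks. Of 74 such genes, 10 had one in U-937 (13.5%, against 7.02% of all protein-coding genes) and 0 in THP-1. With 0.222% of all protein-coding genes carrying a THP-1 boundary peak, and a limit of 4.05% for 0 of 74, nothing is read from the THP-1 count. The lists of related genes were written with earlier results of these data known, so the U-937 share was not tested either. ICE1, a partner of ELL in the little elongation complex, had a fold of 10.3 (rank 118), and the other 12 elongation genes had no boundary peak. ETV5 and DUSP6, genes that CIC represses, had folds of 8.91 and 6.59, 2 of 11 in their list. SF3B1 (7.87) and PHF5A (6.60) were 2 of 9 genes of the SF3A and SF3B subunits. HDGF (6.03), EMD of the inner nuclear membrane (5.54), the carrier translocase gene TIMM22 (7.996), RAB10 (6.88) and BCL2L1 (7.07) were 1 each of lists of 4, 7, 7, 7 and 5. The vimentin gene and the 10 genes of the activin pathway around FSTL3 had no boundary peak in either line. Peaks farther inside the related genes were not looked up.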

How the data were processed

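Bowtie2, Picard and the hg38 build are named in the submitters' processing notes, without roles or versions, and the peak caller is not given in the sources used here. The authors deposited 1 narrowPeak list per library, without a header, holding an integer score, a fold enrichment (linear ratio), and a p-value and q-value as -log10 for each peak. The deposited summit is an offset from the peak's start. Only replicate 1 of each line held values.

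Coordinates were made 1-based. Of 59675 genes on chromosomes in RefSeq's table, 718 out of chromosomal order were left out as lying on other scaffolds, which left 58957, of which 19862 are protein-coding. A gene's peak was the one whose summit lay nearest to either end, and a boundary peak is one within 1000 bp. Strand and starts came from RefSeq's promoter table, which covered 15842 of these genes. Rank 1 is the highest fold, over peaks on chromosomes. The nearest-end search recovered 200 of 200 peaks planted in simulated data on 19862 genes. A peak counted as recovered when the returned distance was no larger than the planted one. Any search that includes the planted peak meets this criterion, so the count says little. The returned distances were also required to equal those of a direct search over all planted peaks on the chromosome. Peaks were planted only before the lower-coordinate end of a gene. Python 3.11.15, pandas 2.3.3 and numpy 2.4.6 were used.

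The 10 genes, the lists of related genes and the motifs were chosen with earlier results of these data known. Named genes were the 10, neighbours sharing their peaks, up to 12 other genes with boundary peaks in both lines, and up to 4 with a peak per related list. No tests were made, as the rule used the same peaks. Alternatives covered window, threshold, overlap, ranking measure, peak midpoint and promoter window.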

Additional observations from a re-analysis of the deposited data

How the results depend on the processing

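The 10 genes rest on weak THP-1 peaks. With only peaks of -log10 q of at least 5, boundary peaks in both lines were left at 3 of 10 genes (TIMM13, LMNB2 and ELL, the last through its 3′ peak in THP-1), and overlapping peaks at 3 (TIMM13, LMNB2 and FSTL3). The count of 9 genes with a boundary peak in both lines stayed between 8 and 10 under windows of 500 and 3000 bp, RefSeq starts only, and the peak edge in place of the summit. All 10 pairs overlapped by at least 50% of the shorter peak, and 9 had each summit inside the other peak. The median site's percentile in the list was 14.0 by -log10 q, 28.2 with contigs and 18.8 among boundary peaks in THP-1, and 97.3 by -log10 q and 93.1 among boundary peaks in U-937. The values among boundary peaks leave out FSTL3, which had no boundary peak, so the set of sites changed too. Peak midpoints were a median of 29.5 bp apart, against 121 bp for summits. The YY1 core was in 0 members' windows when these ended at the start, and the other 8 motif counts did not change. Leaving out a replicate was not possible with 1 list per line. No paired analysis was possible because only replicate 1 of each line held peaks. Depth is unknown, so a missing peak does not show missing binding.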
